A study of Rattus norvegicus with 10 samples.

Results

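HSC-2 is a rat hepatic stellate cell line of the Wistar strain, and the comparison described here sets its scrambled control line against untransfected HSC-2. The arrays were chosen by their labels: 2 arrays of cells transfected with a scrambled control construct (labelled scr, and GFPscr in the design text) and 2 arrays of untransfected cells, 1 at passage 42 and 1 at passage 43 in each line. These are 4 of the 10 arrays of the study. The other 6 are 3 miR-146a overexpression clones (S1, S4, S5), each at the same passages. All lines grew in high-glucose DMEM with 10% fetal bovine serum and antibiotics, and biotin-labelled RNA was hybridised to Affymetrix arrays after one-cycle cDNA synthesis. Neither control line is labelled as carrying the miR-146a construct, so the comparison shows how far a transfected line without the microRNA lay from its untransfected counterpart. The labels do not say whether the scrambled line is 1 clone or a pool, nor whether the passages were separate cultures, so the p-values measure only the spread between these arrays, which may be technical.

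Hepatic stellate cells store retinoids in the healthy liver. On activation, in injury or in culture, they turn into myofibroblast-like cells that make smooth-muscle actin, a contractile apparatus and a collagen-rich matrix. The contractile genes among these are classically read through serum response factor, which binds the CArG box, and matrix genes through transforming growth factor beta signalling. Notch, semaphorin, cadherin and integrin genes described here code for proteins by which such cells contact their neighbours and their matrix.

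Each array gave 31099 intensities, from a floor of 20 units (4.32 on the log2 scale) up to at most 30192.24 units. Between 14.4% and 14.9% of values lay at the floor, and array medians lay between 97.7 and 103.7 units. The 2 untransfected arrays stood apart from the other 8 in the array's own controls. The poly-A spike Dap read 5667 to 7841 units on them, 1886 to 3284 on the scrambled arrays and 1675 to 3007 on the clone arrays, and 5S ribosomal RNA read 503.3 to 753.6, 116.3 to 181.1 and 89.4 to 141.9 units. The 3-prime to 5-prime ratio of actin was 1.81 to 1.85 on the untransfected arrays, 1.49 to 1.59 on the scrambled arrays and 1.39 to 1.56 on the clone arrays, while the hybridisation control Cre read 16240 to 16530, 16740 to 17010 and 14210 to 16770 units. These differences run with the comparison, and their part in the results was not tested.

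The scrambled line differed from the untransfected line in both directions, more often downwards. Of 27520 probe sets tested, 614 (2.23%) were higher and 1065 (3.87%) lower in the scrambled line at a Benjamini-Hochberg adjusted p under 0.05 by limma, a call referred to below as higher or lower. All 1679 had both scrambled arrays on 1 side of both untransfected arrays, a separation that 21.8% of all probe sets showed upwards and 23.1% downwards. The called probe sets with 1 symbol named 434 genes higher and 578 lower. The median change of the called probe sets was 0.88 on the log2 scale upwards and -0.96 downwards, and 74 rose and 125 fell by at least 2 log2 units. The calls rest on a spread that all 5 lines share. A fit of the 4 control arrays alone called 2 higher and 11 lower, and Vnn1, Psca, Postn, Cdh11, Arhgap44, Lgalsl, Il6 and Ebf1 were among those that passed in it (adjusted p = 0.043 for each). A fit with passage number as a block called 1549 higher and 2053 lower, the original 1679 among them. Because RNA came from whole cultures, fewer cells of a kind and less RNA per cell cannot be told apart.

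**Figure D1:**
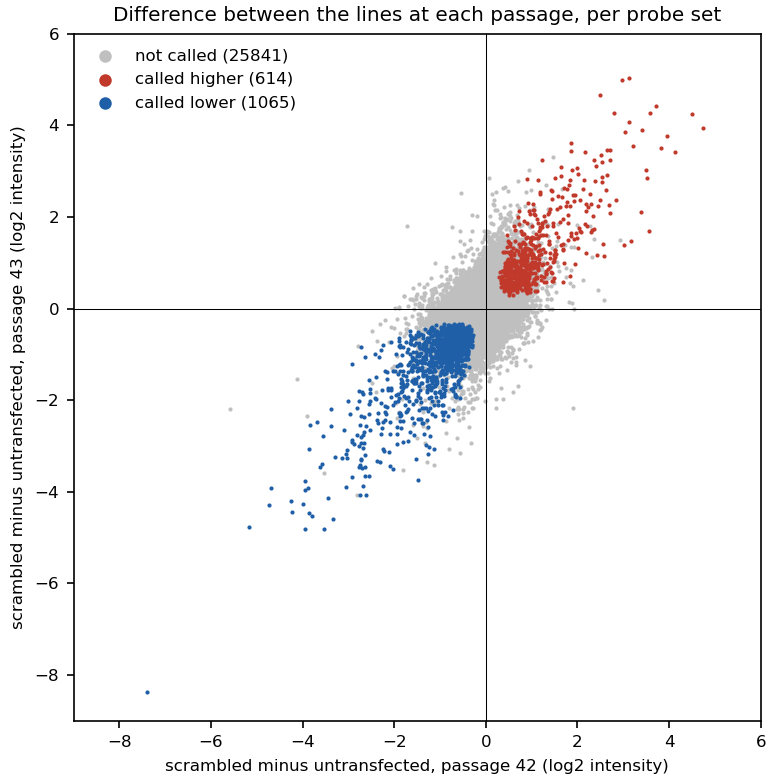
Scrambled minus untransfected difference of each tested probe set (log2 intensity) at passage 42 (horizontal) and at passage 43 (vertical), in grey where not called, red where called higher (614) and blue where called lower (1065). Every called probe set lies on the same side of 0 at both passages, and the lowest point is Postn.

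The 2 passages of the untransfected line lay further apart than those of any other line. The median size of the difference between passages was 0.21 log2 units in the untransfected line, 0.17 in the scrambled line and 0.13 to 0.14 in the clones, and 548, 325 and 147 to 168 probe sets differed by over 1 log2 unit. Pearson correlations over the tested probe sets, given as a description, were 0.96 to 0.977 between an untransfected and a scrambled array, below the 0.985 and 0.988 within these lines. Leaving out the untransfected array of passage 42 raised the calls to 1379 higher and 1845 lower. Leaving out that of passage 43 lowered them to 195 higher and 416 lower. For the scrambled arrays, 260 higher and 348 lower calls were made when the one of passage 42 was dropped, and 315 and 586 when the one of passage 43 was. In these fits the lone array of a line is assumed to vary like the other lines.

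Standard errors of the log2 differences of the 40 largest changes ran from 0.12 for Arhgap44 to 0.96 for Gzmb. Periostin fell furthest of all genes tested. Postn, which codes for this matricellular protein of activated fibroblasts, read 12.65 and 13.25 on the untransfected arrays at passages 42 and 43, and 5.25 and 4.88 on the scrambled arrays (log2 intensity, here and below in the order of the passages). The difference was -7.88 ± 0.47 (SE, 2 arrays per line), a 236-fold fall (limma, adjusted p = 0.000287). Both scrambled arrays lay within 1 log2 unit of the floor, and the 6 clone arrays, at 8.53 to 11.92, lay between the control lines.

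The contractile genes fell as a group. Of 31 measured genes of contraction and stellate activation, 16 (51.6%) were lower and 1 higher in the scrambled line, against 3.79% lower and 2.45% higher among all 13286 genes counted with 1 probe set each. Both scrambled arrays lay below both untransfected arrays in 23 of the 31, against 23.2% of all genes. The median change over the list was -0.67 on the log2 scale, and 0.00 over all genes. The median was -0.68 at passage 42 and -0.80 at passage 43. With the 4 control arrays alone none of the 31 passed adjustment, though 21 were lower at an unadjusted p under 0.05 by limma. Without the untransfected array of passage 43, 9 of the 31 were lower, and without any 1 of the other 3 control arrays 12 or 13. In the fit of the 4 control arrays none of the 33 lists described here had more than 1 call in either direction. The lists and their members were chosen with earlier results of these data known.

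Acta2, smooth-muscle alpha-actin and the usual mark of an activated stellate cell, read 12.91 and 13.23 on the untransfected arrays and 10.13 and 10.22 on the scrambled arrays. The fall was -2.89 ± 0.15 (SE), or 7.43-fold (adjusted p = 0.000171). The clones read 12.19 to 12.74, close to the untransfected line. The enteric smooth-muscle actin Actg2 fell further, from 12.43 and 11.71 to 7.27 and 6.93, a change of -4.97 ± 0.58 and 31.4-fold (adjusted p = 0.00395). Its clone arrays, at 7.51 to 9.71, lay between the lines.

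The fall reached the filament proteins and the enzymes that drive them. Cnn1, the actin-binding protein calponin 1, read 9.25 and 9.45 in untransfected and 5.81 and 5.31 in scrambled cells (13.8-fold lower, adjusted p = 0.00557). Myl9, the regulatory light chain of smooth-muscle myosin, read 12.18 and 12.65 against 9.80 and 10.21 (5.31-fold lower, adjusted p = 0.00291). Mylk, the kinase that phosphorylates this chain, read 8.46 and 9.68 against 6.27 and 7.42, with the lowest untransfected array only 1.04 log2 units above the highest scrambled array, and a second probe set of Mylk changed by -0.18 and was not called. Tagln, the smooth-muscle protein transgelin, read 13.98 and 14.10 against 12.12 and 11.81 (4.22-fold lower, adjusted p = 0.00182). The leiomodin Lmod1, which helps nucleate actin filaments, read 8.72 and 8.98 against 6.85 and 6.52. In all of these genes the lines did not overlap.

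The tropomyosins, which line the actin filament, fell by different amounts. Tpm1 read 13.22 and 13.36 on the untransfected arrays and 11.50 and 11.71 on the scrambled arrays (3.22-fold lower, adjusted p = 0.000415), and 5 of its 7 probe sets were lower. Tpm2 changed by -1.33 and Tpm4 by -0.59. Smaller falls were called for the crosslinkers and adhesion-plaque proteins Flna (-0.79), Actn1 (-0.86) and Vcl (-0.85) and for the actin-binding Cald1 (-0.56), while the LIM-domain genes Csrp1 and Fhl1 changed by -1.76 and -1.72. Several of these, namely Actn1, Vcl, Cald1, Csrp1 and Fhl1, were named after their values were seen, to complete the 16.

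Not every activation gene moved. Vim, the intermediate filament protein vimentin, read 14.52 and 14.43 in untransfected and 14.47 and 14.37 in scrambled cells, with a difference of -0.06 ± 0.10 (adjusted p = 0.796). Des, the stellate and muscle intermediate filament protein desmin, read 6.79 and 6.80 against 7.32 and 7.55, a difference of 0.64 that missed the threshold (adjusted p = 0.0811) and passed it with passage as a block (adjusted p = 0.0145). Thy1, a surface glycoprotein of fibroblasts, read 12.38 and 12.49 against 11.71 and 11.85 (adjusted p = 0.117), and the clones read far lower, at 6.42 to 8.78. The member that rose was Pdpn, the membrane glycoprotein podoplanin, from 5.50 and 5.22 to 6.89 and 7.33 (adjusted p = 0.00223), also named after its values were seen.

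**Figure D2:**
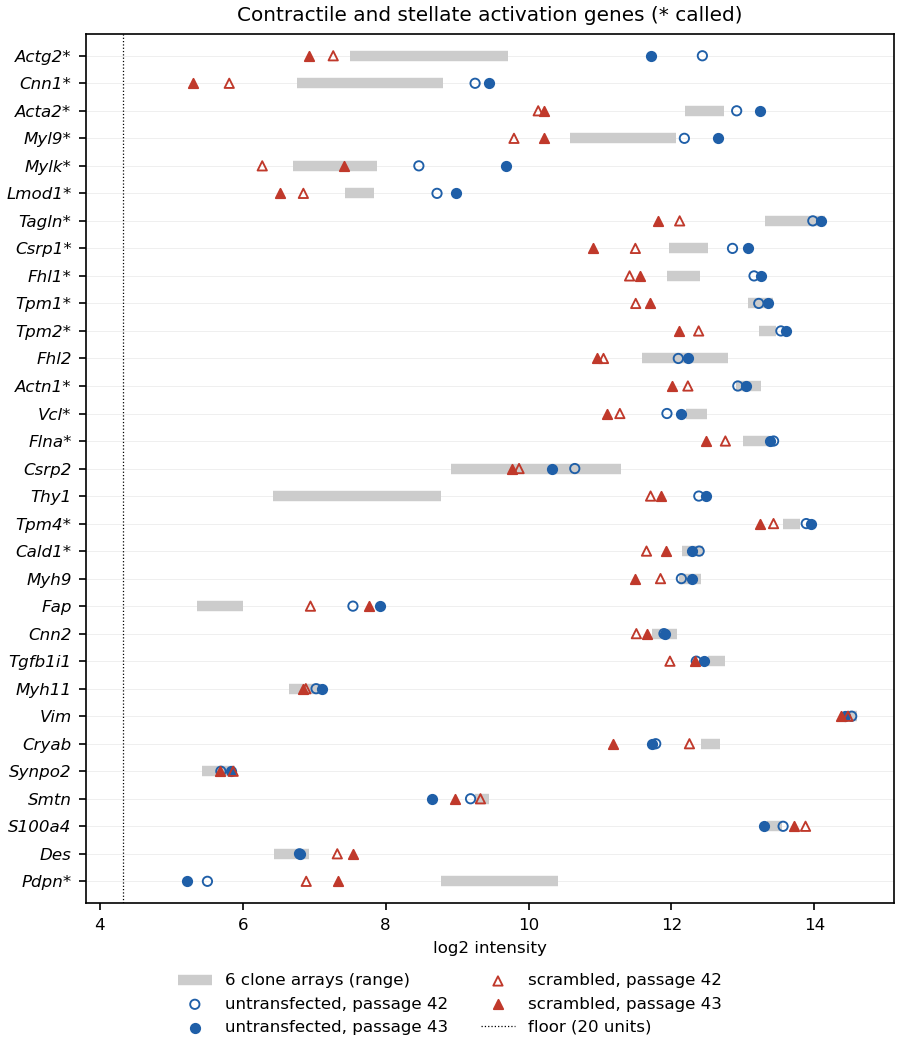
Log2 intensity (horizontal) of the 31 measured contractile and stellate activation genes on the 2 untransfected arrays (blue circles) and the 2 scrambled arrays (red triangles), open at passage 42 and filled at passage 43, ordered by the difference, with the range of the 6 clone arrays in grey and the floor dotted. An asterisk marks the 17 called genes: 16 have both triangles left of both circles, and Pdpn has them to the right.

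Serum response factor, the protein that reads the CArG box, has its own gene among the immediate early genes. Srf read 10.66 and 10.57 on the untransfected arrays and 10.02 and 10.05 on the scrambled arrays, a change of -0.58 (adjusted p = 0.014). It was named after its values were seen. The CArG box was then looked at in the sequence. The box is CC, then 6 letters that are each A or T, then GG, and it was looked for on both strands in RefSeq windows of the GRCr8 build that run from 250 bases before to 50 after a gene's start, the first window listed for each gene. It was present in 3 of the 25 contractile genes with a window (12.0%: Cnn2, Fhl1 and Fhl2, of which only Fhl1 was called), in 6 of 23 immediate early genes (26.1%), in 13 of 397 genes called lower (3.27%), in 8 of 267 called higher (3.0%) and in 145 of all 10989 tested genes with a window (1.32%). These shares are descriptions of the letters near the start and count only exact matches to the pattern. They say nothing of boxes that depart from it or of sites further away. The windows of the genes called lower in these lists that hold the box are shown, with the box in capitals, on the plus strand in both cases (Fhl1 chrX:139638246-139638545, Srf chr9:21923826-21924125):
Fhl1: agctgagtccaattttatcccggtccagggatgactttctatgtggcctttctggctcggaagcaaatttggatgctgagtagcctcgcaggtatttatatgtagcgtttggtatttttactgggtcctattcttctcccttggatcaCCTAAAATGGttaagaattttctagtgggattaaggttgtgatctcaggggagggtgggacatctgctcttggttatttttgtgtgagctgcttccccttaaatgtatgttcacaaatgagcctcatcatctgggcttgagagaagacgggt
Srf: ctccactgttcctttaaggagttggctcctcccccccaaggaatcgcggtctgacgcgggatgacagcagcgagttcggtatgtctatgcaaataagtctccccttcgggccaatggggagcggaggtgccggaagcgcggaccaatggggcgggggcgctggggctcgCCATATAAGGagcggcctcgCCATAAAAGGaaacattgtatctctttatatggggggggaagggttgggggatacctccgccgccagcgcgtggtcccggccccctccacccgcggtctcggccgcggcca

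Type IV collagen, the network of basement membranes, fell, while the type I and type III chains that make up most of a scar did not pass the test. Of 21 collagen genes, 7 (33.3%) were lower and 1 (4.76%) higher, against 3.79% and 2.45% of all genes. The median change over the list was -0.44 on the log2 scale. Leaving out single control arrays left 2 to 6 lower and 0 or 1 higher. Col4a1 and Col4a2, the paired chains of type IV collagen, changed by -3.47 and -2.85 on the log2 scale. Col1a1 and Col1a2, the chains of type I collagen, and Col3a1, of type III, differed by -0.30, -0.21 and -0.06 (adjusted p = 0.145, 0.22 and 0.772). All 3 lay above 14 log2 units on every control array, within 1 log2 unit of the highest value on any array, which limits the difference that could be read. Col1a2 passed with no filter on probe sets at the floor and with the floor raised to 50 (adjusted p = 0.0475 and 0.0486).

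Col4a1 read 12.61 and 12.94 on the untransfected arrays and 9.56 and 9.05 on the scrambled arrays (11.1-fold lower, adjusted p = 0.000395), and both of its probe sets fell. Col4a2 read 11.80 and 12.39 against 9.43 and 9.07 (7.2-fold lower, adjusted p = 0.00221). The clones read 12.49 to 13.06 for Col4a1 and 11.54 to 12.37 for Col4a2, at the level of the untransfected line for both genes. The chains are read from neighbouring genes that point away from each other: in RefSeq (GRCr8) their starts lie 77 bases apart, and their promoter windows share 176 bases, chr16:84885471-84885646. The windows are shown in the direction of each gene, with the shared bases in capitals, Col4a1 on the plus strand (chr16:84885347-84885646) and Col4a2 on the minus strand (chr16:84885471-84885770):
Col4a1: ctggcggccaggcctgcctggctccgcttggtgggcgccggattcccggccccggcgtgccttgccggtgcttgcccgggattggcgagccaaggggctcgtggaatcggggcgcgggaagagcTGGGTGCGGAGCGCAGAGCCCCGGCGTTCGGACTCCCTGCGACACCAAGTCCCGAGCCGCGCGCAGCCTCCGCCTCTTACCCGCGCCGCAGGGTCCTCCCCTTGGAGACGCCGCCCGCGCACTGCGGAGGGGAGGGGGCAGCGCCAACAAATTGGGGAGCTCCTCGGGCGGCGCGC
Col4a2: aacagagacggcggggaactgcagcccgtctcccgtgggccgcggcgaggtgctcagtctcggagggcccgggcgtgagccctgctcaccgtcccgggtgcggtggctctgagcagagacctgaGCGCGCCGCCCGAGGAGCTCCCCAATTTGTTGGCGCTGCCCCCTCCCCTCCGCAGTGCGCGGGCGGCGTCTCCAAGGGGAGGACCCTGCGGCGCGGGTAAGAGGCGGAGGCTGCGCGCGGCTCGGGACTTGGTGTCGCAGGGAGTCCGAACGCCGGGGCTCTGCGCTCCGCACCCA

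Col5a3, a chain of type V collagen, read 11.12 and 11.30 in untransfected and 9.08 and 9.20 in scrambled cells (4.19-fold lower, adjusted p = 0.00814). Col18a1, a basement membrane collagen from which endostatin is cut, changed by -1.60, and Col8a1 by -1.15. Col11a1 (-0.44) and Col27a1 (-0.61) complete the 7, and were named after their values were seen. Col14a1, a collagen that sits on the surface of fibrils, went the other way, from 6.74 and 6.03 to 9.27 and 9.23 (7.27-fold higher, adjusted p = 0.0275). Its second probe set changed by 0.81 and was not called, and the clones spread from 7.19 to 11.98.

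**Figure D3:**
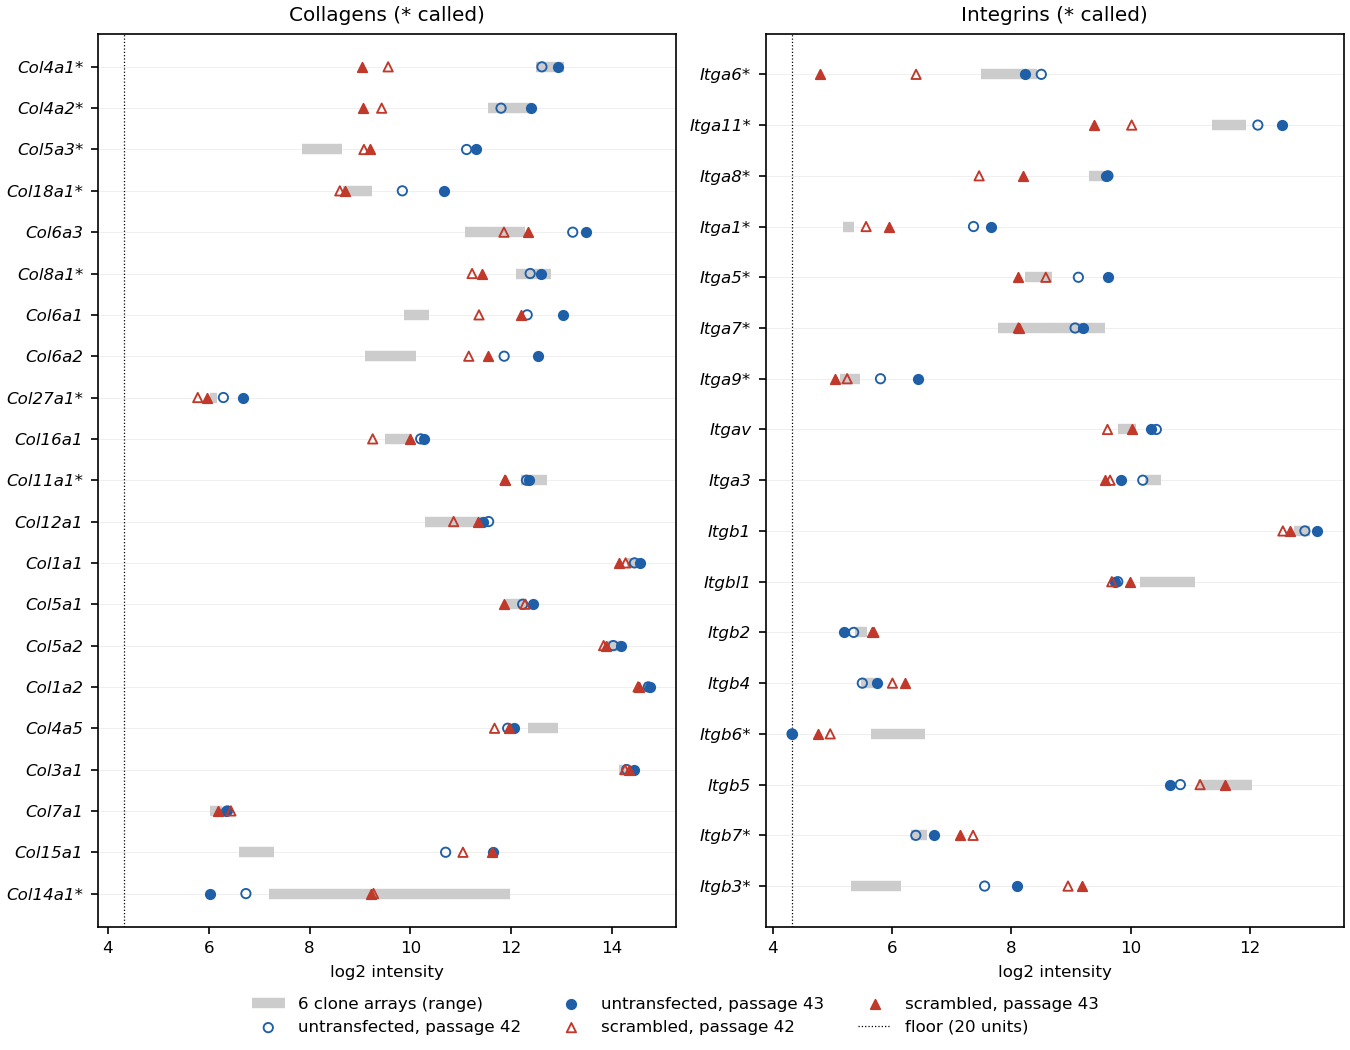
Log2 intensity (horizontal) of the 21 collagen genes (left) and the 17 integrin genes (right) on the 2 untransfected arrays (blue circles) and the 2 scrambled arrays (red triangles), open at passage 42 and filled at passage 43, ordered by the difference, with the clone range in grey, the floor dotted and called genes marked by an asterisk. Col4a1 and Col4a2 lead the collagens that fell, the type I and type III chains show no separation of that size, and Itga6 and Itga11 lead the integrins.

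Among 48 matrix glycoproteins and proteoglycans, 10 (20.8%) were lower and 2 (4.17%) higher, against 3.79% and 2.45% of all genes, with a median of -0.49. Without single control arrays 5 to 11 were lower, and with passage as a block 23. Beside Postn, the largest fall was in Fbn2, the microfibril protein fibrillin 2, from 7.63 and 7.38 to 4.70 and 4.47 (7.55-fold lower, adjusted p = 0.000355). The basement membrane linkers Nid2 and Nid1 changed by -2.06 and -0.88. The matricellular CCN genes Ccn3, Ccn4, Ccn1 and Ccn2 changed by -2.28, -1.40, -1.31 and -0.48, and Ccn2 stayed above 13.9 log2 units on all 4 arrays. Lama2, the laminin chain best known from the basement membrane of muscle, rose from 5.49 and 5.28 to 8.0 and 8.62 (7.61-fold, adjusted p = 0.000509), with clones at 5.50 to 6.09. Fn1, fibronectin, differed by -0.50 and was not called (adjusted p = 0.0958), but passed without the scrambled array of passage 43 (adjusted p = 0.0293). Dcn, the proteoglycan decorin, read 5.81 and 8.97 in untransfected and 5.0 and 5.92 in scrambled cells, so that the passages of the untransfected line lay further apart than the lines (adjusted p = 0.4). The differences at the passages were -0.81 and -3.05 on the log2 scale, and Dcn was called lower with passage as a block (adjusted p = 0.029).

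Among 17 genes of collagen synthesis and crosslinking none was lower by limma (2 at an unadjusted p under 0.05), and the crosslinking enzyme Lox was higher, from 13.12 and 12.64 to 13.66 and 13.81 (adjusted p = 0.044). Of 31 proteases and inhibitors, 3 (9.68%) were lower, Timp3, Adamts9 and the plasminogen activator Plat (-1.70), and 2 (6.45%) higher, Adam10 and Plaur, against 3.79% and 2.45% of all genes. The calls higher were 0 or 1 without single control arrays. Timp3, a metalloproteinase inhibitor held in the matrix, read 6.87 and 7.98 in untransfected cells and the floor on both scrambled arrays by its probe set of smallest p, so that the fall was at least 8.57-fold (adjusted p = 0.00246). Its brightest probe set fell by 2.22 and the other 2 changed by -0.74 and 0.17 and were not called. The clones lay above both control lines, at 9.97 to 11.54. Adamts9, a secreted protease, changed by -2.33 by its brightest probe set and by 0.23, not called, by another, and the gelatinase Mmp2 (-0.13) and the inhibitor Timp1 (-0.14) were not called.

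Of 17 integrin chains, which tie cells to this matrix, 7 (41.2%) were lower and 3 (17.6%) higher, against 3.79% and 2.45% of all genes. Leaving out single control arrays left 3 to 6 lower and 0 or 1 higher. Itga11, a collagen receptor chain of fibroblasts, read 12.13 and 12.53 in untransfected and 10.02 and 9.39 in scrambled cells (6.18-fold lower, adjusted p = 0.00175). Itga6, a laminin receptor chain, changed by -2.77 at its brightest probe set, where the scrambled arrays themselves read 6.40 and 4.78, and 2 of its 4 probe sets were not called. Itga8, Itga1 and Itga5 changed by -1.78, -1.76 and -1.03. Itgb3, a chain of the vitronectin receptor, rose from 7.55 and 8.09 to 8.95 and 9.18 (adjusted p = 0.0495). The clones read 5.32 to 6.15 for Itgb3, below both control lines.

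Surface and guidance molecules were among the largest changes in both directions. Cdh11, a cadherin of mesenchymal cells, read 11.29 and 11.18 in untransfected and 7.04 and 6.98 in scrambled cells (18.7-fold lower, adjusted p = 0.00174). This held for 1 of its 3 probe sets, the others changing by -1.56 and -0.09 without a call. The tetraspanin Cd81 read 11.48 and 11.99 against 7.59 and 8.07 (15-fold lower, adjusted p = 0.000613). The clones read 9.87 to 11.27 for Cdh11 and 11.45 to 12.05 for Cd81, at or near the untransfected level.

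Sema3d, a secreted semaphorin, rose from 6.90 and 5.66 to 10.49 and 9.93 (15.3-fold, adjusted p = 0.00313), and Sema3a, another, from 5.37 and 5.12 to 7.83 and 7.37 (5.11-fold, adjusted p = 0.00104). The clones lay at the scrambled level for both, at 9.56 to 10.37 and 7.55 to 7.92. Cadm1, an adhesion molecule of the immunoglobulin family, rose from 6.71 and 5.54 to 10.12 and 9.45 (12.6-fold, adjusted p = 0.00191), with clones at 10.53 to 10.87. Vcam1, the vascular cell adhesion molecule that binds leukocytes, read 7.66 and 8.24 against 11.62 and 12.01 (14.6-fold higher, adjusted p = 0.0178), and here the clones stayed lower, at 7.77 to 9.65. Ntm, a neural adhesion protein counted here with the stellate markers, rose from 4.91 and the floor to 9.65 and 8.27 (20.3-fold, adjusted p = 0.00301).

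Of the 16 Notch pathway genes measured, 6 were lower, none was higher by limma and 10 were not called. Of all genes, 3.79% were lower and 2.45% higher. The 16 were taken from a joint list with Wnt genes, a split that was not set beforehand. Passage as a block called 1 of the 16 higher and 6 lower. Jag1, a ligand of Notch receptors, read 11.18 and 11.57 on the untransfected arrays and 8.26 and 7.88 on the scrambled arrays (9.86-fold lower, adjusted p = 0.000589). The receptor Notch1 read 7.51 and 7.07 against 5.88 and 5.73 (2.81-fold lower, adjusted p = 0.00383), and Notch3 changed by -0.67. The transcriptional repressors Hey2, Hey1 and Hes1, known as targets of Notch, changed by -4.13, -1.03 and -0.81. Hey2 read 9.78 and 8.83 against 5.78 and 4.57 (17.5-fold lower, adjusted p = 0.00277). In the joint list of 43 Notch and Wnt genes, 8 were lower (18.6%) and 1 higher, with a median of -0.04, and 5 to 8 were lower without single control arrays. The Wnt members called were the receptor Fzd8 (-2.65), the secreted inhibitor Sfrp4 (-1.72) and the target gene Axin2, which was higher (1.0). Notch3, Hes1 and Axin2 were named after their values were seen.

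**Figure D4:**
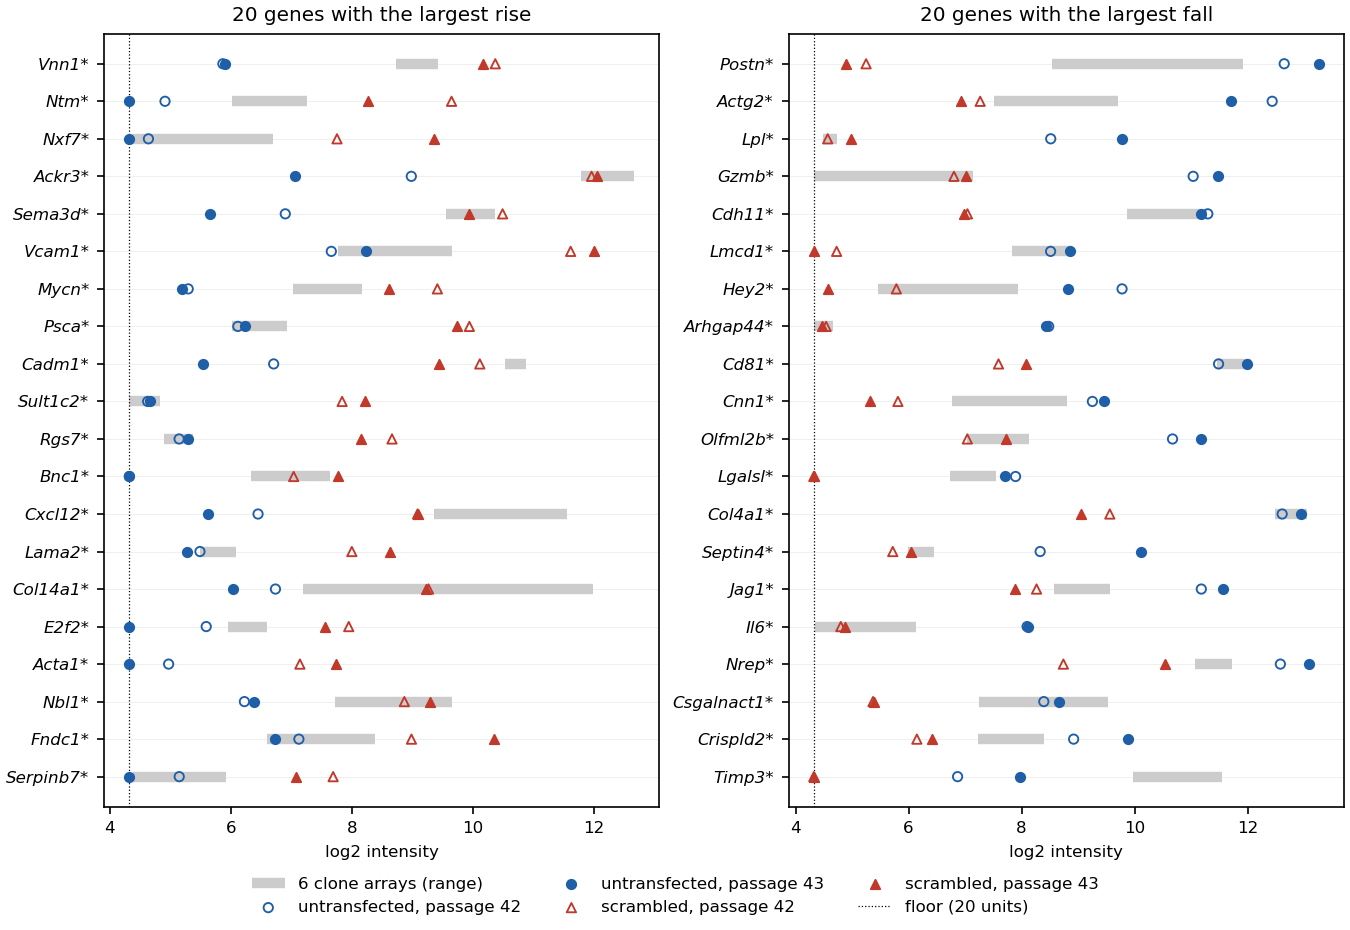
Log2 intensity (horizontal) of the 20 genes with the largest called rise (left) and the 20 with the largest called fall (right), each by its probe set of smallest p, on the 2 untransfected arrays (blue circles) and the 2 scrambled arrays (red triangles), open at passage 42 and filled at passage 43, with the range of the 6 clone arrays in grey and the floor dotted. The clones lie beside the untransfected arrays for Cd81 and Col4a1, beside the scrambled arrays for Lpl, Arhgap44 and Ackr3, and between the lines for Postn.

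Ligands and modulators of the transforming growth factor beta family moved both ways: of 46 genes, 7 (15.2%) were lower and 4 (8.7%) higher, against 3.79% and 2.45% of all genes, with a median of -0.18. Without the untransfected array of passage 43 only 1 was lower and 1 higher, and without either scrambled array 3 or 4 were lower and 1 or 2 higher. Tgfb3, 1 of the ligands, read 11.51 and 11.89 in untransfected and 9.21 and 9.15 in scrambled cells (5.73-fold lower, adjusted p = 0.000631). Grem1, a secreted antagonist of bone morphogenetic proteins, and Bambi, a decoy receptor, changed by -2.40 and -2.29, and the signal transducer Smad3 by -1.48. The rises were in the activin subunit gene Inhbb, from 5.28 and 6.01 to 8.84 and 7.72, in the antagonists Chrd (1.89) and Nbl1 (2.78), and in the ligand Bmp3 (1.80). Nbl1 was close to the threshold (adjusted p = 0.0432). Tgfb1, the ligand best known from fibrosis, differed by -0.61 and was not called (adjusted p = 0.0917). Smad3 and Bmp3 were named after their values were seen.

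Among growth factor genes, 9 of 58 (15.5%) were lower and 2 higher, and without single control arrays 5 to 8 were lower. All genes had shares of 3.79% lower and 2.45% higher. Egfr, the epidermal growth factor receptor, read 8.45 and 9.07 against 5.75 and 5.58 (8.53-fold lower, adjusted p = 0.000791), and 1 of its 3 probe sets changed by -0.09 and was not called. Its ligand Tgfa changed by -1.39. The clones read 4.58 to 5.56 for Egfr, beside the scrambled arrays. Igf1r, the receptor of insulin-like growth factor 1, changed by -1.37, while Pdgfrb (-0.41) and Pdgfra (0.45), the receptors of platelet-derived growth factor, a known mitogen of stellate cells, were not called. Without the scrambled array of passage 42 Pdgfra passed (1.20, adjusted p = 0.0387), and its differences at the passages were -0.39 and 1.29. Egfr and Notch1 were the 2 of 27 reported miR-146a targets that were called (7.41%), both lower, in a comparison without the microRNA construct. Of all genes, 3.79% were lower. The median over the 27 was -0.004. The lines were separated upwards in 8 of them and downwards in 8 (29.6% each way). Among all genes these shares were 22.3% upwards and 23.2% downwards. The targets Irak1 and Traf6 differed by 0.30 and -0.00 and were not called (adjusted p = 0.113 and 0.998).

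Inflammatory genes split. Il6, the cytokine interleukin 6, read 8.10 and 8.11 in untransfected and 4.80 and 4.87 in scrambled cells (9.63-fold lower, adjusted p = 0.0159), with the passages almost equal within each line. The chemokine Cxcl12 rose from 6.45 and 5.63 to 9.09 and 9.09 (8.28-fold, adjusted p = 0.0154), 2 of its 3 probe sets being called. Its scavenging receptor Ackr3 rose from 8.98 and 7.07 to 11.96 and 12.06 (15.9-fold, adjusted p = 0.00859), with clones at 11.80 to 12.67. Tlr4, the receptor of bacterial lipopolysaccharide, was higher by 1.39, and Cxcl10, an interferon-induced chemokine, rose from 6.86 and 6.46 to 8.44 and 8.93 (4.05-fold, adjusted p = 0.00174). The clones stayed at the untransfected level for Cxcl10, at 6.21 to 6.86. Over the lists, 4 of 60 inflammatory genes (6.67%) were higher and 1 lower, and without single control arrays 0 to 2 were higher. Of 56 interferon genes, 2 (3.57%) were higher and 1 (1.79%) lower, near the 2.45% and 3.79% of all genes. Without the scrambled array of passage 42, 12 interferon genes were higher, and with passage as a block 6 were higher and 6 lower.

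Of the remaining large rises, Vnn1, the pantetheinase vanin 1, led with 5.87 and 5.91 against 10.37 and 10.16 (20.8-fold, adjusted p = 0.000183). Mycn, a transcription factor of the Myc family, rose from 5.30 and 5.19 to 9.42 and 8.61 (13.7-fold, adjusted p = 0.000791). The clones lay between the lines for both, at 8.73 to 9.42 and 7.03 to 8.16. Psca, a surface antigen first described in prostate, rose from 6.12 and 6.23 to 9.94 and 9.73, and the sulfotransferase Sult1c2 from 4.63 and 4.66 to 7.84 and 8.22 (12.7-fold and 10.5-fold, adjusted p = 0.00013 and 0.000171). The signalling regulator Rgs7 rose from 5.14 and 5.30 to 8.67 and 8.16. For Psca, Sult1c2 and Rgs7 the clones stayed at or near the untransfected level, at 6.01 to 6.93, 4.32 to 4.82 and 4.90 to 5.37. Bnc1, the zinc-finger gene basonuclin 1, was at the floor on both untransfected arrays and read 7.04 and 7.78 on the scrambled arrays, at least 8.49-fold higher (adjusted p = 0.00998).

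Of the remaining large falls, Lpl, lipoprotein lipase, read 8.51 and 9.78 against 4.57 and 4.97 (20.8-fold lower, adjusted p = 0.000835). Arhgap44, a GTPase-activating protein, had the smallest p of the named genes, with 8.48 and 8.42 against 4.54 and 4.46 (15.5-fold lower, adjusted p = 1.69e-05). The clones lay at the scrambled level for both, at 4.48 to 4.73 and 4.32 to 4.67. Lmcd1, a LIM-domain protein, read 8.51 and 8.85 against 4.73 and the floor, with clones at 7.83 to 8.90. Gzmb, the granule protease granzyme B, read 11.04 and 11.47 against 6.80 and 7.02 (20.3-fold lower, adjusted p = 0.0407), and its second probe set, at -3.56, was not called. Lgalsl was at the floor on both scrambled arrays and at 7.89 and 7.71 on the untransfected arrays, at least 11.1-fold lower (adjusted p = 3.39e-05).

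The cell-cycle and sterol genes differed mainly at passage 43. None of the 50 mitosis genes and 51 DNA replication genes was called by limma, and 0 and 12 of them were higher at an unadjusted p under 0.05. Of all 13286 genes, 2.45% were called higher and 6738 lay above 0. Yet 48 of the mitosis and 49 of the replication genes lay above 0, with medians of 0.60 and 0.76 on the log2 scale. The median difference was 0.17 and 0.31 at passage 42, and 0.98 and 1.08 at passage 43. The median level of the mitosis genes was 9.81 and 8.65 on the untransfected arrays and 9.80 and 9.59 on the scrambled arrays, so that the untransfected array of passage 43 was the low one. Mki67, the proliferation antigen Ki-67, read 10.82 and 9.25 against 10.85 and 10.94 (adjusted p = 0.363). Without the untransfected array of passage 42, 1 mitosis gene and 17 replication genes were called higher. With passage as a block the counts were 9 and 23.

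The 34 cholesterol and fatty acid synthesis genes followed the same arrays. Their median level was 10.17 and 9.17 on the untransfected arrays and 10.34 and 10.27 on the scrambled arrays. Mvk, Mvd, Ebp and Tm7sf2, enzymes of the mevalonate and later sterol steps, were called higher, by 0.97, 1.04, 1.04 and 1.09. These 4 were 11.8% of the list, against 2.45% of all genes. In the list 31 of the 34 lay above 0, against 6738 of all 13286 genes. Mvd read 8.42 and 7.74 against 9.33 and 8.90. Leaving out the untransfected array of passage 42 raised the 4 calls to 23, and leaving out any 1 of the other 3 control arrays ended them.

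**Figure D5:**
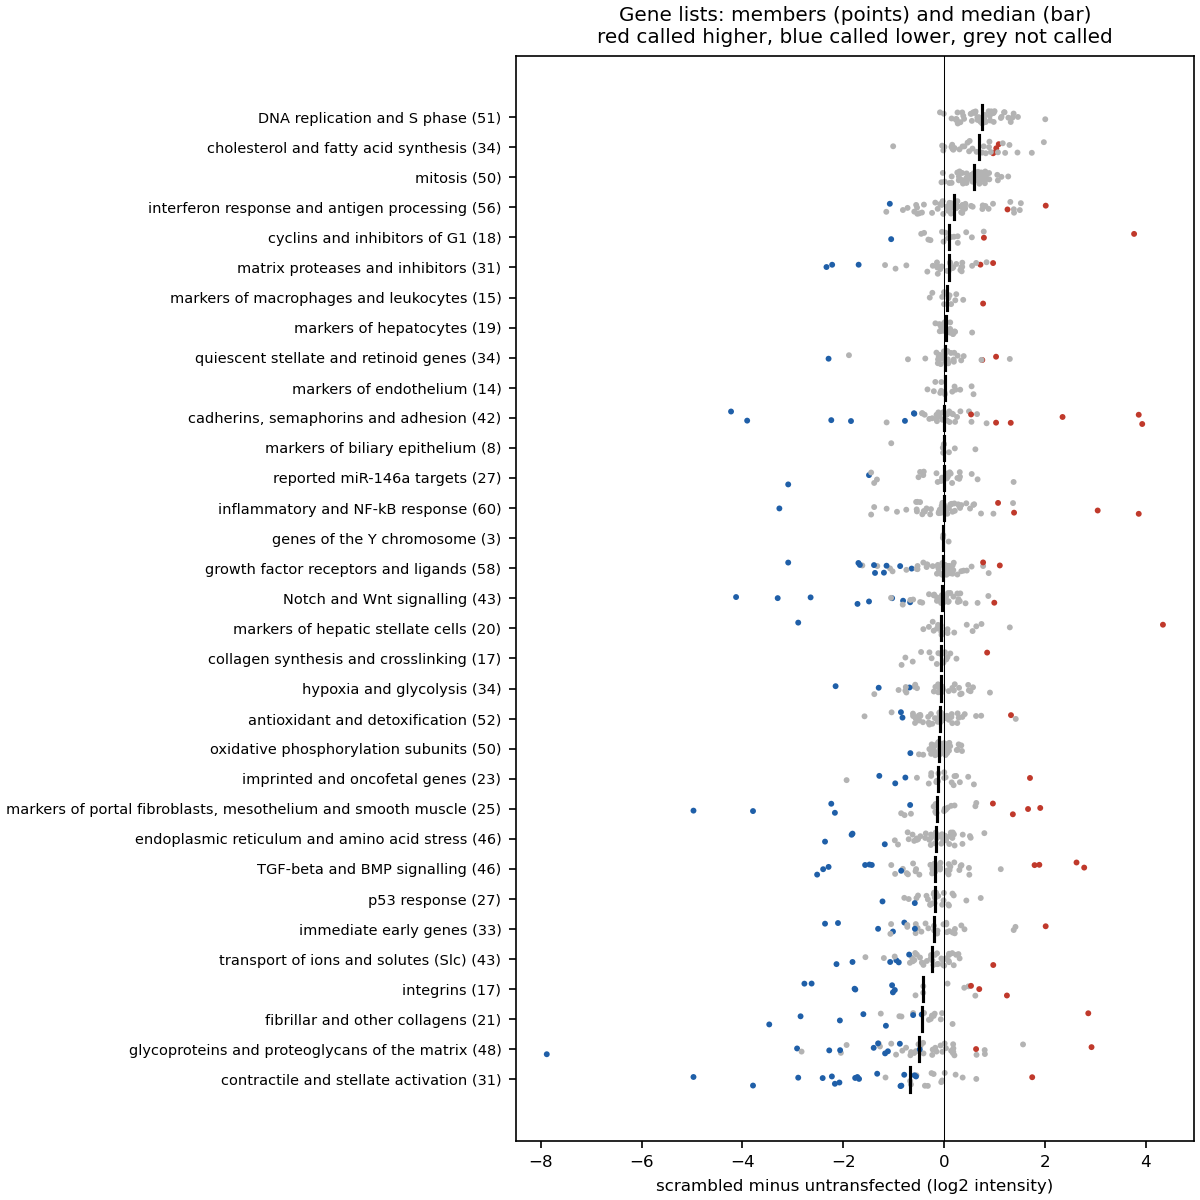
Scrambled minus untransfected difference (log2 intensity, horizontal) of every measured member of the 33 gene lists (points, red where called higher, blue where called lower, grey where not called), with the list median as a black bar and the number of members in brackets. The contractile list has the lowest median (-0.67) and 16 of its 31 members in blue, and the DNA replication list the highest (0.76) with none called.

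Immediate early genes, which respond within minutes to serum and stress, included 6 lower (18.2%) and 1 higher of 33, and 1 to 4 lower without single control arrays. Dusp1, a phosphatase of mitogen-activated kinases, read 10.62 and 10.77 against 9.48 and 7.70 (adjusted p = 0.0456), and Atf3, a stress-induced transcription factor, read 7.76 and 9.17 against 5.96 and 6.25 (adjusted p = 0.0211). Klf4, a factor known in vascular smooth muscle as a repressor of contractile genes, rose from 9.72 and 9.29 to 12.03 and 11.01 (4.05-fold, adjusted p = 0.0159). Its clone arrays read 10.37 to 11.40. In other stress and metabolic lists few members were called: 2 of 27 p53 genes, 4 of 46 unfolded protein genes, 3 of 34 hypoxia genes and 1 of 50 oxidative phosphorylation genes were lower, and of 52 antioxidant genes 2 were lower and 1 higher. These shares, from 2.0% to 8.82% lower, lie on both sides of the 3.79% of all genes. Among these, Egln3, an oxygen-sensing hydroxylase, was at the floor on both scrambled arrays and at 6.47 and 6.48 on the untransfected arrays. The fall was at least 4.45-fold (limma, adjusted p = 6.79e-05). Egln3 was also at the floor on 5 of the 6 clone arrays, and floor readings have no spread, so this p-value overstates the precision.

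The cell type labelled was checked against its markers. Of 20 stellate markers measured, Acta2 was lower and Ntm higher (5.0% each way), and the other 18 were not called. Among all genes, 3.79% were lower and 2.45% higher. Gfap (5.17 and 5.05 against 4.86 and 5.25) and Hgf (4.89 and 4.68 against 4.76 and 4.57) lay within 1 log2 unit of the floor in both lines, while Vim, Col1a1 and Col3a1 were bright in both. None of the 19 hepatocyte, 14 endothelial and 8 biliary markers was called by limma (at an unadjusted p under 0.05 there were 1, 3 and 1). Ptprc and Krt19, named after their values were seen, lay at or within 0.1 log2 units of the floor on all 4 control arrays. The summed intensity of hepatocyte markers was 900.7 to 954.3 units in untransfected and 949.4 to 961.9 in scrambled cells, and that of endothelial markers 1502 to 1690 and 1622 to 1682. The sum of biliary markers was 4925 to 6174 units in untransfected and 4228 to 4685 in scrambled cells, and that of stellate markers 120470 to 127740 and 104040 to 106030. Both sums were lower in the scrambled line without overlap, but a sum is led by its brightest members. Gene by gene, the median change was -0.002 over the biliary list, with 4 members above 0 and 4 below. Over the stellate list it was -0.05, with 9 above 0 and 11 below. Of 15 macrophage and leukocyte markers, Csf1r was higher, from 4.53 and 4.67 to 5.23 and 5.53.

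Some markers of portal fibroblasts, mesothelium and smooth muscle moved in opposite directions, but 16 of the 25 measured were not called. The 5 lower were the smooth-muscle and pericyte genes Actg2, Cnn1, Lmod1, Mcam and Notch3. The 4 higher were the mesothelial genes Upk1b, Msln, Lrrn4 and Wt1. Among all genes, 3.79% were lower and 2.45% higher. Of the rises 0 to 2 were called without single control arrays, and of the falls 3 to 5. Msln, the surface protein mesothelin, read 6.12 and 6.30 against 7.59 and 8.17 (adjusted p = 0.0429). Wt1, a transcription factor of the mesothelium, read 8.81 and 8.70 against 9.70 and 9.75 (adjusted p = 0.0236). Krt18 lay at the floor on every control array and was not called. Wt1, Lrrn4 and Krt18 were named after their values were seen. The summed intensity of the 25 markers, led by the brightest, was 21370 to 25010 units in untransfected and 16985 to 18879 in scrambled cells. Gene by gene, the median change was -0.15 on the log2 scale, with 12 markers above 0 and 13 below. Whether cells of another kind had a part in these changes was not tested.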

How the data were processed

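Total RNA of 10 samples was hybridised to 1-colour arrays. The deposited table holds 1 intensity per probe set and array. RMA is named as the authors' processing tool, per the submitters' processing notes. The deposited intensity values are linear, with a floor of 20 units, and how RMA output was brought to that scale, and whether any probe set was above background, is not given in the sources used here. No detection call was used.

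Log2 was taken with no pseudocount. Left out were 57 array controls and 3522 probe sets that read the floor on each of the 10 arrays. limma 3.58.1 in R 4.3.3 was fitted to all 10 arrays, a coefficient for each of the 5 lines leaving 5 residual degrees of freedom, with Benjamini-Hochberg adjustment over 27520 probe sets and a threshold of 0.05. The steps were tested on simulated data. Of the tested probe sets, 19202 had 1 gene symbol, 399 several and 7919 none in the platform annotation; 19142 were matched by gene ID to the RefSeq GRCr8 gene table. In lists, a gene is represented by its probe set of highest mean.

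Groups came from the labels. Both untransfected titles carry the same replicate number, so arrays were numbered by passage, and the passage block pairs the lines by it. In all 10 pairs of lines the passage deviations correlated above 0.1 (0.136 to 0.648). The lowest value, 0.136, was that of the untransfected and scrambled lines compared here, and pairs of clones had 0.541 to 0.648. Named genes were the 20 largest called changes each way, up to 6 called members of each of 33 lists, 40 set genes (6 not analysed here) and the 10 brightest called genes; others are said to be named after their values were seen. The members and lists were chosen with earlier results of these data known. Alternatives changed the arrays, the passage block, the floor, the filter, the normalization and the prior.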

Additional observations from a re-analysis of the deposited data

Results flagged for a closer look

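Ccl2, the monocyte chemoattractant chemokine, moved in opposite directions at the 2 passages. It read 8.33 in untransfected and 7.58 in scrambled cells at passage 42, a difference of -0.744 on the log2 scale, and 6.95 and 8.72 at passage 43, a difference of 1.78. With 1 array per line and passage the difference between the passages was not tested. The comparison over both passages did not call Ccl2 (limma, adjusted p = 0.576).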

How the results depend on the processing

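None of the 133 named calls changed direction under the alternatives that were run, while 11 of the 25 named genes that were not called took the other sign in at least 1, among them Ccl2, Pdgfra and Timp1. The number of probe sets called higher was 614, and lower 1065, and moved as follows. With the 4 control arrays alone, which leave 2 residual degrees of freedom, it was 2 and 11. With passage number as a replicate block it was 1549 and 2053. Leaving out single control arrays gave 195 to 1379 higher and 348 to 1845 lower. Without a filter on probe sets at the floor it was 384 and 630, and with the floor raised to 50 it was 365 and 545. Quantile normalization, a filter at a mean log2 of 6 and an intensity trend with a robust prior kept both counts within 1.5 times. Of 133 named calls, 126 missed the threshold with the 4 control arrays, 28 to 70 when 1 control array was left out, 56 with the raised floor, 58 with no filter, 4 after quantile normalization and 0 with the passage block. At either passage alone, an alternative chosen after seeing the data, all 133 kept their direction. Every call had both scrambled arrays on 1 side of both untransfected arrays. Its direction at 1 passage, or without 1 control array, therefore could not have changed. Array number limits the precision. Values at the floor have no order and no spread, which makes p-values smaller where whole lines lie at the floor.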

Other observations

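A set of skeletal muscle genes, chosen after their values were seen and not tested as a set, was partly higher in the scrambled line. Of 12 looked at, 5 were called higher, none lower and 7 not called, while 2.45% of all genes were higher and 3.79% lower. Because the 12 were chosen after their values were seen, their count cannot be weighed against these shares. Myod1, the myogenic transcription factor, was at the floor on both untransfected and all 6 clone arrays. It read 7.03 and 6.40 on the scrambled arrays, at least 5.25-fold higher (limma, adjusted p = 0.000613). Myod1 passed the filter only through the scrambled arrays, and floor readings have no spread, so this p-value overstates the precision. Myog, another myogenic transcription factor, read 5.86 and 5.89 against 7.30 and 6.66. Acta1, skeletal alpha-actin, read 4.97 and the floor against 7.14 and 7.74, with clones at 4.32 to 4.38. The myosin genes Myl11 (4.76 and 4.32 against 6.39 and 7.22) and Myh3 (4.61 and 4.69 against 5.39 and 6.31) were also higher. Ckm, the muscle creatine kinase, read 5.52 and 5.70 against 5.50 and 5.77 and was not called, nor were Cdh15, Chrna1, Tnnt3, Tnni1, Tnnc2 and Myom1. With passage as a block Cdh15 and Tnnc2 passed as higher (adjusted p = 0.0394 and 0.0194).

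Other genes also chosen after their values were seen add to the differences. Colec12, a scavenger receptor, was at the floor on both untransfected and all 6 clone arrays. It read 6.59 and 6.82 in the scrambled line, at least 5.21-fold higher (limma, adjusted p = 6.79e-05). Like Myod1 it passed the filter only through the scrambled arrays, so its p-value overstates the precision in the same way. Ebf1, a transcription factor, read 8.45 and 8.62 against 5.31 and 5.36 (9.17-fold lower, adjusted p = 0.000613), with clones between at 6.66 to 7.76. Cd248, the fibroblast and pericyte antigen endosialin, rose from 8.61 and 8.37 to 10.38 and 10.70, and the clones, at 6.51 to 7.35, lay below both lines. Gata4 and Gata6, whose products mark the stellate and mesothelial lineages of the liver in mouse, were higher by 1.87 and 0.82 (adjusted p = 0.0472 and 0.0276). Rhox5, a homeobox gene, rose from 7.87 and 8.36 to 10.07 and 10.17, with clones at 6.80 to 7.10.

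H19, an imprinted noncoding RNA, rose from 6.09 and 6.38 to 8.28 and 7.60 (3.26-fold, adjusted p = 0.00811), with clones at 5.77 to 6.28. The imprinted genes Mest, Phlda2 and Slc22a18 were lower by 1.28, 0.97 and 0.77 log2 units. Of the 23 imprinted and oncofetal genes measured, 3 (13.0%) were lower, 1 (4.35%) higher and 19 not called. Among all genes, 3.79% were lower and 2.45% higher.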
